A study of Rattus norvegicus with 10 samples.

Results

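The genes described here are 10 regulators and outputs of the integrated stress response, a kinase (Eif2ak4), transcription factors (Atf4, Atf3, Ddit3), feedback genes (Trib3, Ppp1r15a) and outputs (Chac1, Eif4ebp1, Ddit4, Fgf21). They were taken by gene symbol, and every probe set annotated to 1 of them alone was kept, which gave 12 of the 31042 probe sets and 10 of the 14217 genes on the array. Trib3 has 3 probe sets and each other gene has 1. The livers were those of female rats of the Harlan Sprague-Dawley stock, 5 samples per group. Rats of the I3C group were gavaged 5 days each week with indole-3-carbinol, which cruciferous plants yield when cut or chewed, at 300 mg per kg with corn oil as the carrier. Rats of the vehicle group were gavaged on the same schedule with corn oil and no compound (0 mg per kg). Dosing lasted 13 weeks in both groups by the labels, while the design text speaks of a chronic study, and the rats' age is not given in the sources used here. The labels do not say whether each array was a separate rat, so the spread behind the p-values may be in part technical.

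In the integrated stress response, kinases that sense different kinds of stress phosphorylate the translation initiation factor eIF2, which lowers protein synthesis at large while the messages of a few regulators are translated more. The kinase encoded by Eif2ak4, known as GCN2, senses uncharged tRNA when amino acids run short. Atf4 is the central transcription factor of the response, and its own output is set largely by translation. Its targets include amino acid synthesis genes, further transcription factors, genes that restore translation, and in liver the hormone FGF21, which is secreted into blood and is also known as a signal of fasting and of protein shortage.

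Short windows before the start of the gene are shown for the 2 members with the largest differences, Fgf21 and Trib3, and for Chac1, a known ATF4 target that did not pass the test. Each is the 250 bases before the annotated start, read in the direction of the gene, from RefSeq on assembly GRCr8: chr1:105221377-105221626 on the minus strand for Fgf21, chr3:161275534-161275783 on the minus strand for Trib3, and chr3:126795881-126796130 on the plus strand for Chac1. Capitals mark matches to TGATGNAA, the core of the element that ATF4 and its C/EBP partners are known to bind, to its longer form TGATGCAAT, and to GCGTG, the core of the element bound by the aryl hydrocarbon receptor, a sensor that I3C products are known to activate. Both strands were searched, so that a match on the other strand appears as TTNCATCA or CACGC.
Fgf21: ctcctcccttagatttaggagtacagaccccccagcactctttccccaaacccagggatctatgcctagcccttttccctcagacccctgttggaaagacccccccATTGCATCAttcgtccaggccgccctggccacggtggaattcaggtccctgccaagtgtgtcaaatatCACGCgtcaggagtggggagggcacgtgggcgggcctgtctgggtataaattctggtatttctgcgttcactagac
Trib3: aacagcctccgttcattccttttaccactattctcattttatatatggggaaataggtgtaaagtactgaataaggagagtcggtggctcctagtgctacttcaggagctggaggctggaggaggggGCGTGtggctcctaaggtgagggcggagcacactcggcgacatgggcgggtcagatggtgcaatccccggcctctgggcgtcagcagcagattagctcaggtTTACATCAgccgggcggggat
Chac1: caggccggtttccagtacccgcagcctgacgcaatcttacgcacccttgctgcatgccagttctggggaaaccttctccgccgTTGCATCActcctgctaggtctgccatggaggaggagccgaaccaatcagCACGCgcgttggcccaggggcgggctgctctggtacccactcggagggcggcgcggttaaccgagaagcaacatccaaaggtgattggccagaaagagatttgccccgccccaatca

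Of the 8 members matched in the promoter table, these 3 held TGATGNAA, as did 3.4% of all 33469 windows of the same length. In Fgf21 the match lies 143 to 136 bases before the start and extends to the longer form TGATGCAAT, which 0.161% of all windows held and no other member window did. In Chac1 it lies 167 to 160 bases and in Trib3 21 to 14 bases before the start. Windows with GCGTG were common, at 7 of 8 members (all but Eif2ak4) against 25.9% of all windows, and the member windows were 55.2% to 68.4% G or C where the median of all windows was 51.2%. The palindrome TGACGTCA, which factors of the CREB and ATF families bind, was found in Ppp1r15a, 66 to 59 bases before its start, and in 1.59% of all windows. A match describes the letters of these windows, and a window without one says nothing of the factor.

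The arrays fell apart by group on the first principal component, which held 32.7% of the variance, and vehicle 5 stood apart from the other arrays on the second (47.8, against -15.1 to 7.4 on the other 9 arrays). The array medians lay between 6.22 and 6.30 on the log2 scale. Defining hepatocyte markers were bright in both groups, with albumin at 15.11 on the log2 scale in I3C and in vehicle livers. The difference between the 3' and 5' control probe sets of GAPDH, a measure of RNA quality and labelling, was 0.23 ± 0.05 in I3C arrays and 0.45 ± 0.12 in vehicle arrays (SD, n = 5 each), without overlap (exact permutation p = 0.00794, the smallest that 5 against 5 can give, adjusted p = 0.037 over 7 measures of the arrays). The beta-actin control pair gave 1.40 ± 0.14 in I3C and 1.59 ± 0.12 in vehicle arrays (SD, n = 5 each, exact permutation p = 0.0476, adjusted p = 0.0667). Fits with one of these 3'-5' differences as a covariate, called the GAPDH model and the beta-actin model, and fits without vehicle 5 are given beside the results.

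Of the 10 members 6 rose in the I3C livers, namely Trib3, Fgf21, Ddit4, Atf4, Atf3 and Eif4ebp1, and 0 fell. In the same 6 genes all 5 I3C arrays lay above all 5 vehicle arrays. Over all genes tested 3.32% rose, 3.11% fell and 4.61% had all 5 I3C arrays above all 5 vehicle arrays. Counted by probe set, 8 of 12 rose, beside 2.49% of all probe sets. Ddit3, Chac1, Ppp1r15a and Eif2ak4 did not pass, and at an unadjusted p under 0.05 limma also called 0 members lower, beside 10.2% of all genes. The median log2 difference of the members was 0.49, beside 0.00 over all genes (-0.0039). Each difference is I3C minus vehicle, and "rose" and "fell" are used at a limma p under 0.05 after Benjamini-Hochberg adjustment across the 31042 probe sets.

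**Figure D1:**
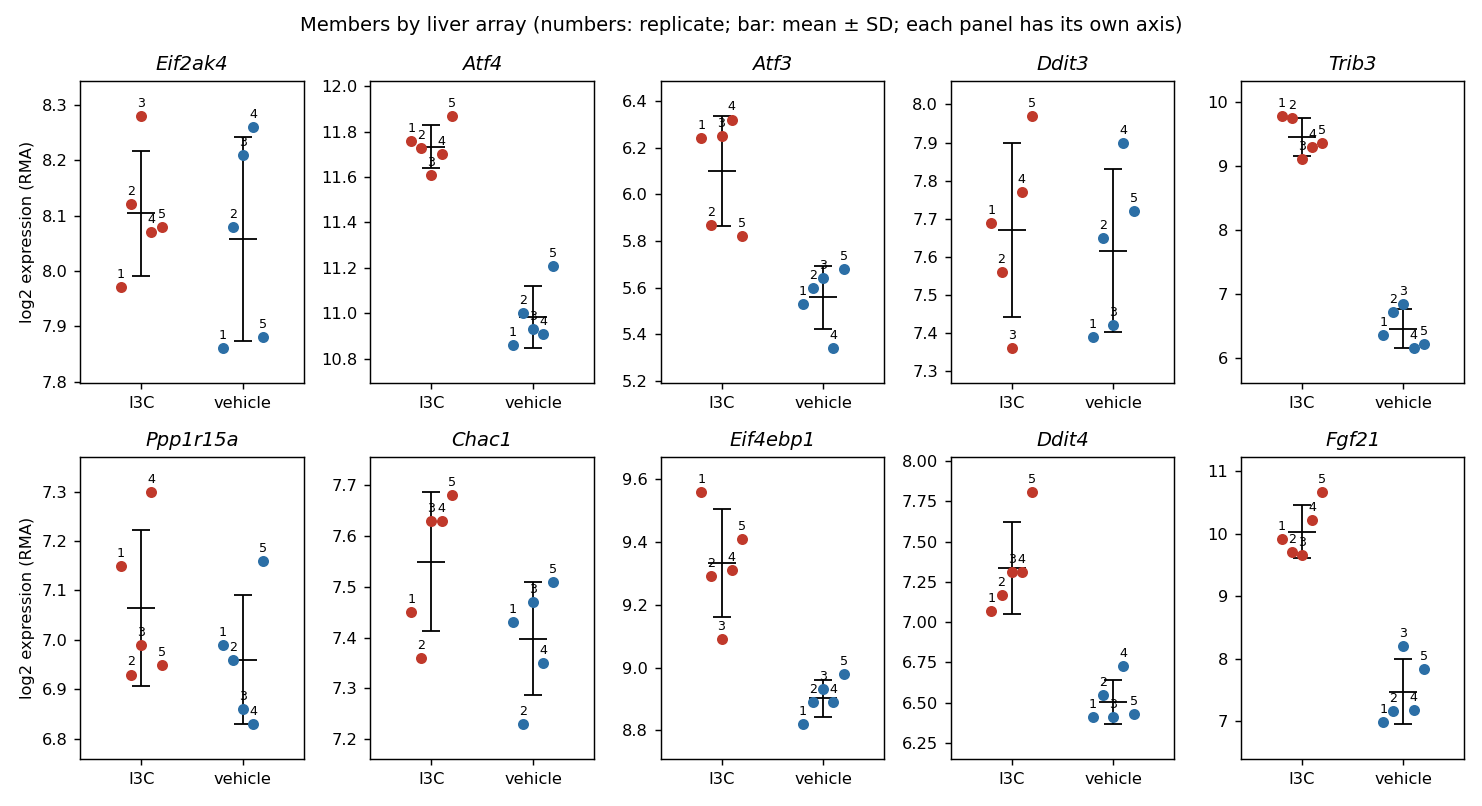
Log2 expression of the 10 members on each array, with the 5 I3C arrays on the left of each panel, the 5 vehicle arrays on the right, the replicate number above each point, and bars for the mean ± SD. The groups do not overlap in Atf4, Atf3, Trib3, Eif4ebp1, Ddit4 and Fgf21, and they overlap in Eif2ak4, Ddit3, Ppp1r15a and Chac1.

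Among the kinases, Eif2ak4 was measured at 7.97, 8.12, 8.28, 8.07 and 8.08 on the log2 scale in I3C arrays 1 to 5, against 7.86, 8.08, 8.21, 8.26 and 7.88 in vehicle arrays 1 to 5. The 2 groups covered much the same range. Its difference was 0.05 ± 0.09 (SE, n = 5 per group), with a 95% interval from -0.15 to 0.25 and a limma adjusted p of 0.893. That interval corresponds to between 0.90-fold and 1.19-fold of the vehicle level of this transcript. The activity of the kinase, which is set by phosphorylation, is not measured on an expression array.

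Atf4 was bright on every array. Its log2 values were 11.76, 11.73, 11.61, 11.70 and 11.87 in I3C arrays 1 to 5, against 10.86, 11.00, 10.93, 10.91 and 11.21 in vehicle arrays 1 to 5. The lowest I3C array stood 0.40 above the highest vehicle array, which was vehicle 5. The rise was 0.75 ± 0.08 (SE, limma adjusted p = 0.000147), or 1.68-fold. Without vehicle 5 it was 0.81 ± 0.07 (SE), and in the GAPDH model 0.92 ± 0.12 (SE, limma adjusted p = 0.00431).

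Atf3, a transcription factor that is induced by ATF4 and also by many acute stresses, is a dim probe set, with a vehicle mean at the 37.8th percentile of probe sets. It stood at 6.24, 5.87, 6.25, 6.32 and 5.82 in I3C arrays 1 to 5, against 5.53, 5.60, 5.64, 5.34 and 5.68 in vehicle arrays 1 to 5, on the log2 scale. I3C array 5 was only 0.14 above the highest vehicle array and array 2 was close to it, and the other 3 formed a higher set. The rise was 0.55 ± 0.11 (SE, limma adjusted p = 0.0116), 1.46-fold. Its call ended in the GAPDH model (0.50 ± 0.18, SE, limma adjusted p = 0.235) and in the beta-actin model (0.39 ± 0.13, SE, limma adjusted p = 0.158).

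Ddit3 encodes CHOP, the transcription factor that ATF4 induces under lasting stress and that is linked to cell death. Its log2 values were 7.69, 7.56, 7.36, 7.77 and 7.97 in I3C arrays 1 to 5, against 7.39, 7.65, 7.42, 7.90 and 7.72 in vehicle arrays 1 to 5. The groups overlapped almost entirely, and 3 of 5 I3C arrays lay above the vehicle mean. The difference was 0.06 ± 0.12 (SE, limma adjusted p = 0.899), with a 95% interval from -0.21 to 0.32, so that a rise beyond 1.25-fold lies outside it. The 95% interval of Atf4, 0.58 to 0.92, does not meet it.

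Trib3, a pseudokinase that binds ATF4 and restrains it, rose on all 3 of its probe sets. The brightest, 1386321_s_at, read 9.78, 9.74, 9.11, 9.29 and 9.35 in I3C arrays 1 to 5, against 6.37, 6.72, 6.85, 6.16 and 6.22 in vehicle arrays 1 to 5, on the log2 scale. Every I3C array was at least 2.26 above every vehicle array. Its rise was 2.99 ± 0.16 (SE, limma adjusted p = 5.45e-07), 7.95-fold, and 6 of the 14217 genes had a larger one. It is the brightest by the mean over all arrays, to which its high I3C values contribute. In vehicle arrays alone 1370695_s_at was brighter, with a mean of 7.03 against 6.46. The size and rank given for the gene therefore depend on that choice. The next, 1370695_s_at, read 9.23, 8.88, 8.65, 8.59 and 8.78 in I3C arrays 1 to 5, against 7.04, 6.98, 7.15, 6.97 and 6.99 in vehicle arrays 1 to 5, a rise of 1.80 ± 0.11 (SE, limma adjusted p = 1.25e-06). The dimmest, 1370694_at, read 8.70, 8.55, 8.13, 7.72 and 8.69 in I3C arrays 1 to 5, against 5.06, 5.60, 5.84, 5.83 and 6.39 in vehicle arrays 1 to 5, a rise of 2.61 ± 0.23 (SE, limma adjusted p = 5.19e-05).

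The size of the Trib3 rise differed between probe sets, at 7.95-fold, 3.48-fold and 6.11-fold, with no overlap of the groups in any of them. The rise of the brightest exceeded that of 1370695_s_at by 1.19 on the log2 scale (exact permutation p = 0.00794, adjusted p = 0.0238 over 3 contrasts, two-sided), the smallest p that 5 against 5 can give. The rise of 1370695_s_at minus that of the dimmest was -0.81 (exact permutation p = 0.0159, adjusted p = 0.0238). Between the brightest and the dimmest the gap was 0.38 (exact permutation p = 0.286). The ending _s_at is the manufacturer's mark for probe sets whose probes can match more than 1 transcript. In the GAPDH model the rises were 2.77 ± 0.26 for the brightest, 1.83 ± 0.18 for 1370695_s_at and 3.34 ± 0.30 for the dimmest (SE), so that the order of the first and the last turned.

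**Figure D2:**
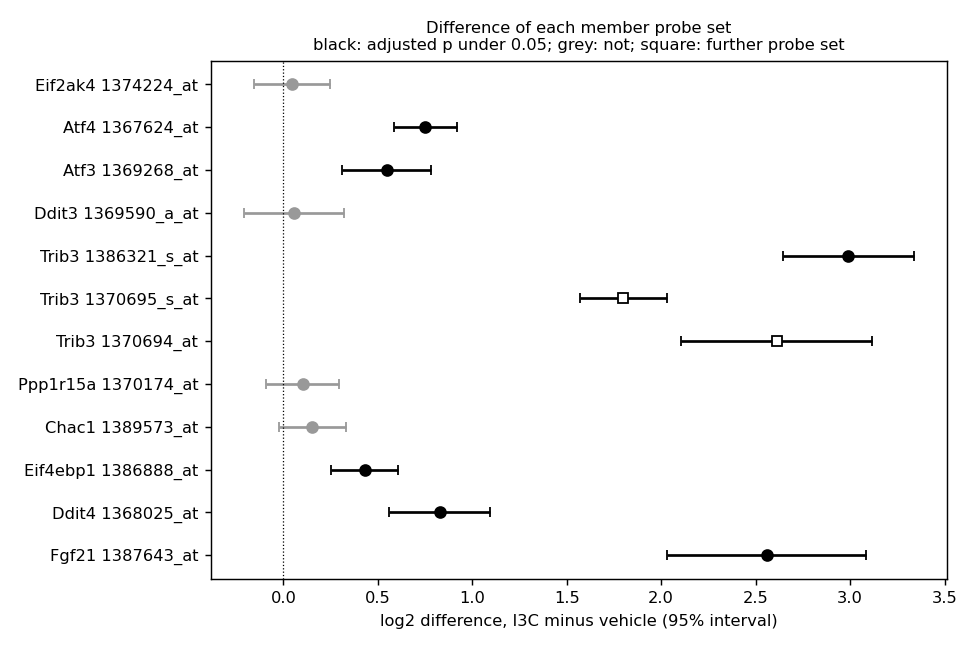
Log2 difference, I3C minus vehicle, of the 12 member probe sets with 95% intervals from limma. The 8 probe sets in black passed, the 3 of Trib3 among them (1.80 to 2.99), and the 4 in grey have intervals that include 0.

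Ppp1r15a encodes GADD34, the phosphatase subunit that returns eIF2 to its active form. It read 7.15, 6.93, 6.99, 7.30 and 6.95 in I3C arrays 1 to 5, against 6.99, 6.96, 6.86, 6.83 and 7.16 in vehicle arrays 1 to 5, on the log2 scale. I3C array 4 stood above every vehicle array, and the other 4 lay inside the vehicle range. The difference was 0.10 ± 0.09 (SE, limma adjusted p = 0.679), with a 95% interval from -0.09 to 0.29. In the beta-actin model its sign turned, at -0.09 ± 0.08 (-0.086, limma adjusted p = 0.688).

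Chac1, an enzyme that breaks down glutathione, read 7.45, 7.36, 7.63, 7.63 and 7.68 in I3C arrays 1 to 5, against 7.43, 7.23, 7.47, 7.35 and 7.51 in vehicle arrays 1 to 5. In 4 of 5 I3C arrays it was above the vehicle mean, but I3C arrays 1 and 2 lay within the vehicle range. Its log2 difference was 0.15 ± 0.08 (SE, limma adjusted p = 0.399), with a 95% interval from -0.02 to 0.33, and the unadjusted p was 0.0811. The window before Chac1 printed above holds the same 8-base match, TTGCATCA, as that of Fgf21, whose interval of 2.03 to 3.08 lies wholly above that of Chac1.

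Eif4ebp1 encodes a repressor of cap-dependent translation that binds the cap-binding protein eIF4E and is released by mTORC1. Its log2 values were 9.56, 9.29, 9.09, 9.31 and 9.41 in I3C arrays 1 to 5, against 8.82, 8.89, 8.93, 8.89 and 8.98 in vehicle arrays 1 to 5. The vehicle arrays were tightly spaced (SD 0.06), and I3C array 3 was the nearest to them, 0.11 above the highest. The rise was 0.43 ± 0.08 (SE, limma adjusted p = 0.00883), 1.35-fold. The call ended at nearly the same size in the GAPDH model (0.48 ± 0.14, SE, limma adjusted p = 0.136) and in the beta-actin model (0.41 ± 0.11, SE, limma adjusted p = 0.0817).

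Ddit4, an inhibitor of mTORC1 that ATF4, low oxygen and glucocorticoids are all known to induce, read 7.07, 7.17, 7.31, 7.31 and 7.81 in I3C arrays 1 to 5, against 6.41, 6.55, 6.41, 6.73 and 6.43 in vehicle arrays 1 to 5. I3C array 5 was well above the other I3C arrays and vehicle 4 led its group. The rise was 0.83 ± 0.12 on the log2 scale (SE, limma adjusted p = 0.00183), 1.77-fold. Without I3C array 5 it was 0.71 and still passed (limma adjusted p between 0.00115 and 0.00719 over the 10 fits that each leave out 1 array). The GAPDH model gave 0.77 ± 0.21 (SE, limma adjusted p = 0.116).

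Fgf21 read 9.92, 9.70, 9.65, 10.21 and 10.67 in I3C arrays 1 to 5, against 6.99, 7.17, 8.20, 7.18 and 7.84 in vehicle arrays 1 to 5, on the log2 scale. The spread within each group was wide, with vehicle 3 and vehicle 5 above the other vehicle arrays and I3C arrays 4 and 5 above the other I3C arrays. The lowest I3C array was nevertheless 1.46 above the highest vehicle array. The rise was 2.56 ± 0.24 (SE, limma adjusted p = 7.77e-05), 5.89-fold with a 95% interval from 4.09-fold to 8.48-fold, and 10 genes had a larger one. It was 2.81 ± 0.41 in the GAPDH model (SE, limma adjusted p = 0.00815), and without vehicle 5 2.65 ± 0.25 (SE).

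In the GAPDH model, then, Atf4, Trib3 and Fgf21 passed and Atf3, Eif4ebp1 and Ddit4 did not, so that 3 members rose in place of 6. In the beta-actin model 4 rose, and without vehicle 5 the count was 6. The part of RNA quality in these results was not tested beyond these fits.

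**Figure D3:**
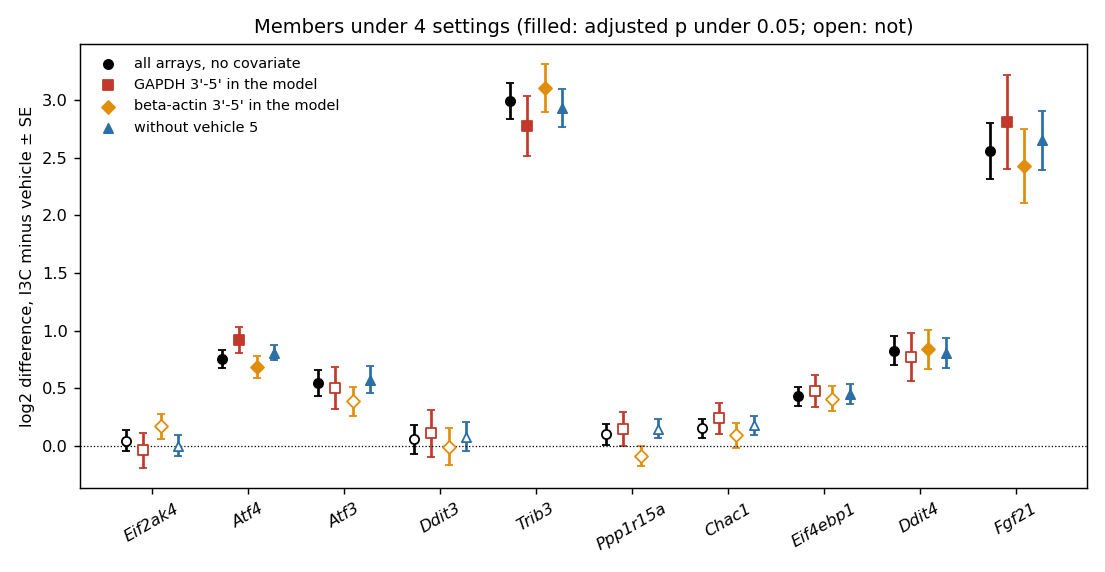
Log2 difference, I3C minus vehicle, ± SE of the 10 members with all arrays and no covariate, in the GAPDH and beta-actin models, and without vehicle 5. Filled symbols passed at an adjusted p under 0.05. Trib3 lies between 2.77 and 3.10 and Fgf21 between 2.43 and 2.81, and the calls of Atf3, Eif4ebp1 and Ddit4 end in the GAPDH model.

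Within the groups, members did not rank the arrays alike. Among I3C arrays, array 5 was the highest for 5 members (Atf4, Ddit3, Chac1, Ddit4 and Fgf21) and the lowest for Atf3, while array 3 was the lowest for 5 (Atf4, Ddit3, Trib3, Eif4ebp1 and Fgf21) and the highest for Eif2ak4. Array 1 was the highest for Trib3 and Eif4ebp1. Among vehicle arrays, array 5 was the highest for 5 members (Atf4, Atf3, Ppp1r15a, Chac1 and Eif4ebp1) and array 1 the lowest for 6.

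A group of 5 arrays is too small for a coefficient of its own, so co-variation was taken over the deviations of all 10 arrays from their group means, for 45 pairs of members. Of these, 26 had a Pearson r above 0 and 19 below, with a median of 0.06 and a range from -0.64 to 0.72. Under exact permutation within groups (two-sided) 0 pairs passed after adjustment (smallest adjusted p = 0.556), and 3 had an unadjusted p under 0.05. By Spearman's rho 4 had an unadjusted p under 0.05 and 0 passed.

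The 3 pairs were Atf3 with Ppp1r15a, Eif2ak4 with Ppp1r15a, and Atf4 with Eif4ebp1. Atf3 and Ppp1r15a had r = 0.72 (exact permutation p = 0.0338) and rho = 0.76 (exact permutation p = 0.0358), and r = 0.62 without the 2 arrays farthest out in Atf3, I3C arrays 2 and 5. Eif2ak4 and Ppp1r15a had r = -0.64 (exact permutation p = 0.0488) and rho = -0.65 (exact permutation p = 0.0435), and r = -0.65 without vehicle 1 and vehicle 4. Atf4 and Eif4ebp1 had r = 0.61 (exact permutation p = 0.0272) and rho = 0.82 (exact permutation p = 0.00674, adjusted p = 0.303), and r = 0.74 without I3C array 5 and vehicle 5. Each of the 3 had an adjusted p of 0.556 for r.

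Atf4 did not pass with Trib3 or with Fgf21, and each pair used only the brightest probe set of a gene. The other 2 Trib3 probe sets were not paired with Atf4. In the dimmest of them, 1370694_at, vehicle 5 was the highest vehicle array and vehicle 1 the lowest, as in Atf4. In the brightest these were vehicle 3 and vehicle 4, so the coefficient below holds for that probe set alone. Atf4 and Trib3 had r = 0.01 (exact permutation p = 0.989, adjusted p = 0.989) and rho = 0.25 (exact permutation p = 0.513), and r = 0.72 without I3C array 5 and vehicle 5, so that the value rests on those arrays. Atf4 and Fgf21 had r = 0.55 (exact permutation p = 0.134, adjusted p = 0.605) and rho = 0.56 (exact permutation p = 0.12), and r = 0.18 without the same 2 arrays. Trib3 and Fgf21, the members with the largest rises, had r = 0.13 (exact permutation p = 0.737, adjusted p = 0.989) and rho = 0.22 (exact permutation p = 0.562), and r = -0.21 without I3C array 1 and vehicle 3.

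**Figure D4:**
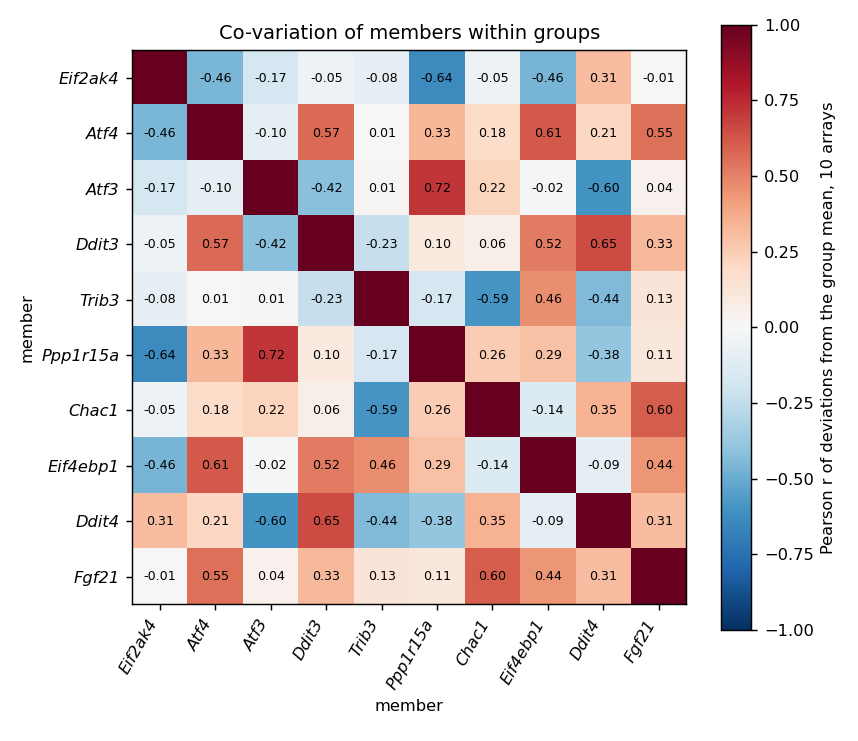
Pearson r between members, each by its brightest probe set, over the deviations of 10 arrays from their group means. The scale runs from -1 to 1. The highest value is 0.72 (Atf3 with Ppp1r15a), the lowest is -0.64 (Eif2ak4 with Ppp1r15a), and Atf4 with Trib3 is at 0.01.

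Over the same deviations, and among 9482 genes brighter than the median probe set, the genes most like Atf4 were Tmem143 (r = 0.96), Mapre3 (r = 0.96), Coq4 (r = 0.95), Dgat1 (r = 0.94) and Klhl21 (r = 0.94). These 5 did not pass between groups, with log2 differences from -0.01 to 0.21 (-0.008 for Coq4), whereas Atf4 did. Those most like Fgf21 were Wnt5b (r = 0.89), Inhbe (r = 0.87), Tor3a (r = 0.86), Otub2 (r = 0.85) and Rab11fip5 (r = 0.84), of which Rab11fip5 fell by 0.44 ± 0.09 (SE, limma adjusted p = 0.0149) and the others did not pass. The coefficients are the highest of many and are given as a description over 10 arrays. The largest deviation of Atf4 was 0.23 on vehicle 5, the array that stood apart on the second principal component. How far its list rests on that array was not tested.

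Upstream of Atf4, 2 of 21 measured genes of the eIF2 kinases, eIF2, eIF2B and their phosphatase partners rose and 0 fell (by limma's unadjusted p under 0.05, 5 higher and 1 lower), with a median log2 difference of 0.07 (0.065). For the unadjusted counts of this and later lists, 10.2% of all genes were lower by that rule. The share of all genes that were higher by it was not taken, so those counts have none beside them. Eif2ak3, the kinase PERK that senses unfolded protein in the endoplasmic reticulum, rose by 0.37 ± 0.09 (SE, limma adjusted p = 0.045). Its log2 values were 7.84, 8.24, 8.29, 8.01 and 8.19 in I3C arrays 1 to 5, against 7.79, 7.74, 7.64, 7.94 and 7.63 in vehicle arrays 1 to 5, and I3C array 1 lay inside the vehicle range. Eif2s2, a subunit of eIF2, rose by 0.31 ± 0.08 (SE, limma adjusted p = 0.0479). In the GAPDH model 0 of the 21 passed, as with the replicate block, without moderation and after median centring. Leaving out 1 array gave 0 or 1 in each of the 10 fits, with 0 in 5 of them (without I3C array 2, 3 or 5 or vehicle 1 or 3), so the 2 calls rest on all 10 arrays.

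Among 15 partners and competitors of these transcription factors 4 rose and 0 fell (by limma's unadjusted p under 0.05, 5 higher and 1 lower). Nfe2l2, which encodes NRF2, the regulator of antioxidant genes, rose by 1.05 ± 0.10 (SE, limma adjusted p = 6.49e-05), or 2.08-fold. Cebpb, a C/EBP factor that pairs with ATF4, had log2 values of 10.31, 10.33, 10.53, 10.27 and 10.16 in I3C arrays 1 to 5, against 9.51, 9.75, 9.74, 9.47 and 9.69 in vehicle arrays 1 to 5. Its groups were well apart, and the rise was 0.69 ± 0.08 (SE, limma adjusted p = 0.000489). Nupr1, a small stress-induced cofactor, rose by 0.63 ± 0.12 (SE, limma adjusted p = 0.0105), and Jund by 0.33 ± 0.08 (SE, limma adjusted p = 0.0372) on 1 of its 3 probe sets. The GAPDH model called 2 of the 15. Cebpa, another C/EBP factor, did not pass, at -0.423 ± 0.115 (SE, limma adjusted p = 0.0567), and is named after its value was seen. Of the 15, 1 fell with trended robust moderation, without dim probe sets, with array weights and after averaging the probe sets of a gene.

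Downstream, 18 of 42 other known ATF4 targets rose and 1 fell, which is 42.9% rising beside 3.32% of all genes, with a median log2 difference of 0.27. The largest were the asparagine synthetase Asns (3.67 ± 0.22), Phgdh and Psat1 of serine synthesis (2.67 ± 0.20 and 2.03 ± 0.17), and Slc3a2, the heavy chain of several amino acid exchangers (1.40 ± 0.13, SE). Asns ran at 9.45, 9.30, 8.34, 8.72 and 9.18 in I3C arrays 1 to 5, against 4.71, 5.29, 5.52, 5.49 and 5.65 in vehicle arrays 1 to 5. As in Atf4 and the brightest Trib3 probe set, I3C array 3 was the lowest of its group, while in the other 2 Trib3 probe sets it was I3C array 4. Slc3a2 ran at 11.81, 11.54, 10.99, 11.32 and 11.50 in I3C arrays 1 to 5, against 10.04, 10.05, 10.16, 10.06 and 9.84 in vehicle arrays 1 to 5, again with I3C array 3 lowest. The likeness to Atf4 was partial. Asns and Slc3a2 were highest in I3C array 1, as was Trib3, whereas Atf4 was highest in I3C array 5. Vehicle 5 was the highest vehicle array for Atf4 and Asns and the lowest for Slc3a2.

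The gene that fell, named after its value was seen, was Gpt2, a mitochondrial alanine aminotransferase, at -0.69 ± 0.11 (SE, limma adjusted p = 0.00248). Sesn2, which ATF4 induces and which restrains mTORC1, did not pass, at -0.38 ± 0.11 (SE, limma adjusted p = 0.0621), and it is likewise named after its value was seen. Of the 42, 9 rose and 1 fell in the GAPDH model, and without vehicle 5 19 rose and 1 fell. Cebpb, Nupr1, Cebpg and Jdp2 stand in this list and in that of the partners, so the counts are not independent. Other lists share genes as well, such as Sesn2, which also stands among the genes of mTORC1 control.

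**Figure D5:**
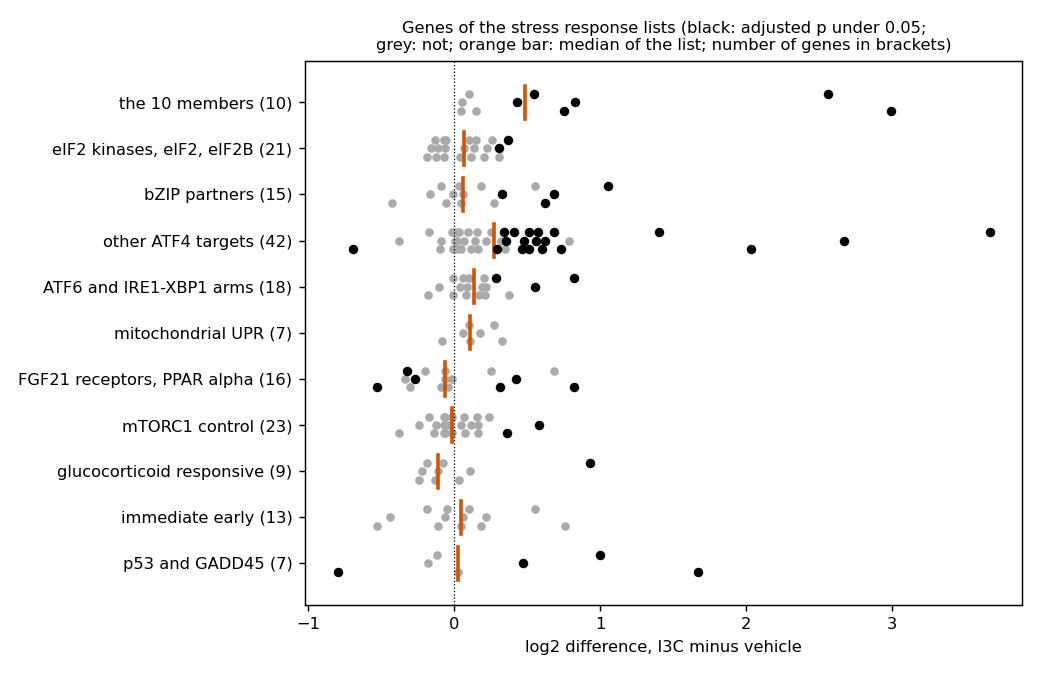
Log2 differences, I3C minus vehicle, of the 10 members and of the genes in 10 lists of the stress response and its neighbours, each point a gene and each orange bar the median of its row. Of the other ATF4 targets 18 of 42 rose, and the mitochondrial and immediate early lists hold 0 that passed.

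Of 18 genes of the ATF6 and IRE1-XBP1 arms of the unfolded protein response 3 rose and 0 fell (by limma's unadjusted p under 0.05, 8 higher and 0 lower), with a median log2 difference of 0.14. They were Dnajb9, a co-chaperone (0.82 ± 0.09), Xbp1, the factor activated by IRE1 (0.56 ± 0.07), and Manf, a secreted stress protein (0.29 ± 0.07, SE). Xbp1 read 12.36, 12.22, 12.23, 12.38 and 12.08 in I3C arrays 1 to 5, against 11.65, 11.78, 11.63, 11.70 and 11.73 in vehicle arrays 1 to 5, without overlap. The GAPDH model called 1 of the 18. Of 7 genes of the mitochondrial unfolded protein response 0 passed limma in either direction (by its unadjusted p under 0.05, 1 higher and 0 lower), the brightest being the chaperonins Hspe1 (0.18 ± 0.08, SE, limma adjusted p = 0.266) and Hspd1 (0.11 ± 0.07, SE, limma adjusted p = 0.517). Without vehicle 5 1 of the 7 rose.

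Around Fgf21, 3 of 16 genes of its receptors and of the PPAR alpha route, which drives hepatic Fgf21 in fasting, rose and 3 fell, with a median log2 difference of -0.06. The risen genes were Pdk4, which restrains pyruvate oxidation (0.82 ± 0.17), Ppara itself (0.43 ± 0.11) and the receptor Fgfr2 (0.31 ± 0.07, SE), and the fallen ones Angptl4, an inhibitor of lipoprotein lipase (-0.53 ± 0.11), the fatty acid hydroxylase Cyp4a1 (-0.32 ± 0.09) and Acadm of fatty acid oxidation (-0.27 ± 0.06, SE). Fgfr2 and Acadm were named after their values were seen. Ppara read 6.71, 6.51, 6.28, 6.71 and 6.42 in I3C arrays 1 to 5, against 6.37, 6.09, 6.18, 6.04 and 5.80 in vehicle arrays 1 to 5, with I3C array 3 inside the vehicle range. The GAPDH model called 0 of the 16, the beta-actin model 0 higher and 1 lower, and the replicate block 2 higher and 0 lower. Over the 10 fits without 1 array 1 to 3 rose and 1 to 4 fell, with 1 of each without I3C array 2, 1 higher and 2 lower without vehicle 3, and 2 higher and 4 lower without vehicle 5.

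Around Ddit4 and Eif4ebp1, 2 of 23 genes of mTORC1 control and cap-dependent translation rose and 0 fell (by limma's unadjusted p under 0.05, 4 higher and 2 lower). Eif4e, the cap-binding protein that the product of Eif4ebp1 holds back, read 10.73 to 11.01 in I3C arrays, against 10.36 at most in vehicle arrays. Its groups did not overlap, and it rose by 0.58 ± 0.08 (SE, limma adjusted p = 0.00142) on 1 of its 3 probe sets. Ddit4l, a dim paralog of Ddit4, rose by 0.36 ± 0.10 (SE, limma adjusted p = 0.0478). The list's median log2 difference was -0.02, and 0 passed in the GAPDH model. Without 1 array 1 of the 23 rose in each of 9 fits, and 3 rose without vehicle 5.

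Markers of other liver cell types were followed in the same arrays. The mean log2 level of the 8 measured of 10 Kupffer cell and leukocyte markers lay between 8.74 and 9.17 in I3C arrays and between 9.12 and 9.48 in vehicle arrays (exact permutation p = 0.0159, adjusted p = 0.037). The 8 had a median log2 difference of -0.344, and by limma's unadjusted p under 0.05, 1 was higher and 5 lower. The higher one was Lyz2, named after its value was seen, which did not pass (0.41 ± 0.15, SE, limma adjusted p = 0.153). Of the 8, Cd5l, a macrophage protein, fell by 0.52 ± 0.12 (SE, limma adjusted p = 0.0256). That 1 call was 0 in the GAPDH and beta-actin models and in 6 of the 10 fits without 1 array (without I3C array 1, 4 or 5 or vehicle 1, 2 or 4), and it was 2 without vehicle 3 or vehicle 5. For the 6 measured of 7 endothelial markers the range was 9.04 to 9.22 in I3C arrays and 9.17 to 9.29 in vehicle arrays (exact permutation p = 0.0476, adjusted p = 0.0667), and the brightest, Kdr and Lyve1, did not pass (-0.11 and -0.26 on the log2 scale). Stellate and matrix markers, all 8 measured, ranged from 7.02 to 7.14 in I3C and from 6.94 to 7.28 in vehicle arrays (exact permutation p = 0.706). That mean joins genes that went opposite ways, with Rgs5 of pericytes higher by 1.33 ± 0.18 and the retinol esterifying enzyme Lrat lower by 0.51 (-0.51 ± 0.10, SE). The median log2 difference of the list was -0.187, and by limma's unadjusted p under 0.05, 1 was higher and 3 lower. For the 4 measured of 5 bile duct markers the range was 6.30 to 6.58 in I3C and 6.24 to 6.35 in vehicle arrays (exact permutation p = 0.0873), with Epcam at 0.26 and Spp1 at 0.13, neither of which passed. The mean of the 9 measured of 10 hepatocyte markers was 13.68 to 13.85 in I3C and 13.61 to 13.72 in vehicle arrays (exact permutation p = 0.0159, adjusted p = 0.037), and of its genes Tat (0.93 ± 0.16) and Apoa1 (0.38 ± 0.07, SE) rose. The other 7 did not pass, and the median log2 difference of the list was -0.006. By limma's unadjusted p under 0.05, 2 were higher and 1 lower. In the GAPDH model 0 genes of these 5 marker lists passed. In bulk liver fewer cells of a type and less RNA per cell cannot be told apart, and the part of these shifts in the members' values was not tested.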

How the data were processed

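Liver RNA of 10 samples was measured on rat whole-genome arrays whose probes lie near the 3' end. The authors deposited log2 values; per the submitters' processing notes they come from RMA, with no version given in the sources used here. RMA gives the probe intensities of all arrays 1 distribution before they are summarised, and it compresses large folds. The deposited values did not share 1 distribution exactly, with array medians from 6.22 to 6.30. Precision is limited by having 5 arrays a group.

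Gene names come from the platform annotation, updated by Entrez ID through RefSeq (assembly GRCr8). Of 31042 probe sets outside the 57 controls 20826 carried 1 gene, and each of the 14217 genes was followed through its brightest probe set over all arrays. The groups were compared by limma 3.58.1 under R 4.3.3 (lmFit, then eBayes, two-sided, prior degrees of freedom 4.6), adjusted by Benjamini-Hochberg over all 31042 probe sets, with a threshold of 0.05. Array measures were compared by exact permutation. The code was tested on simulated data. Named genes are all members, up to 4 passing genes of each list by size or its 2 brightest where 0 passed, and the 5 genes most like Atf4 and most like Fgf21. Alternatives were trended robust or absent moderation, a block for the replicate number, leaving out dim probe sets, quantile normalisation or median centring of the deposited values, array weights, averaging the probe sets of a gene, a stricter threshold, 3'-5' covariates, and leaving out each array. The members, lists and alternatives were chosen with earlier results of these data known.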

Additional observations from a re-analysis of the deposited data

Results flagged for a closer look

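Among 38 groups of 5 array values examined, the 12 member probe sets and 7 array measures in each group, 1 held an array far from the others, where chance flags about 1 in 20. The mean log2 level of the Kupffer cell and leukocyte markers was 8.74 on I3C array 5, the lowest of its group, and its gap to the next array was 0.737 of the group's range, above the critical value of 0.71. The same array was the highest of its group in Atf4, Ddit3, Chac1, Ddit4 and Fgf21. Without it the log2 rise of Fgf21 was 2.40 and that of Ddit4 0.71, and the count of members that rose was 6.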

How the results depend on the processing

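The count of members that rose was 6 under most alternatives, including each of the 10 fits without 1 array, and 5 without moderation or at a threshold of 0.01, where Atf3 (limma adjusted p = 0.0607 and 0.0116) did not pass. It was 4 in the beta-actin model and 3 in the GAPDH model, and 0 members fell in any. Atf4, Trib3 and Fgf21 passed under every alternative run, with log2 differences of 0.69 to 0.92, 2.47 to 3.10 and 2.40 to 2.81, the lowest for Trib3 being the mean of its probe sets. Of 250 values of member probe sets under alternatives, 238 kept direction and side of the threshold, 7 lost the call and 5 turned sign. The 5 were small values of members that did not pass: Eif2ak4 at -0.037 in the GAPDH model, Ddit3 at -0.007 and Ppp1r15a at -0.086 in the beta-actin model, and, without 1 array each, Eif2ak4 in a range of -0.004 to 0.097 and Ddit3 in a range of -0.018 to 0.135. Every alternative was applied to the lists after seeing the data. Of the other ATF4 targets 13 to 20 rose under the remaining alternatives (16 to 19 without 1 array) and 9 in the GAPDH model. That model leaves fewer degrees of freedom and its covariate differs between groups; the cause was not tested further. Over all genes it called 228 in place of 914, against 498 in the beta-actin model, 437 at a threshold of 0.01 and 594 without moderation. Pairs of members that varied together numbered 0 under each alternative (smallest adjusted p = 0.172, without vehicle 4). The labels number the arrays 1 to 5 in both groups, but same-numbered arrays did not deviate together (correlations of -0.28 to 0.22 over probe sets), so the numbers were not taken as pairs. With the replicate number as a block 6 members rose, 0 fell, 16 of the other ATF4 targets rose, and 647 genes were called over all. Probe sets with dim signal, such as that of Atf3, carry folds that the array background can understate.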

Other observations

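GADD45 genes, induced by stress through several routes, stood beside the members of similar name. Gadd45a read 10.97, 10.32, 10.67, 10.44 and 10.07 on the log2 scale in I3C arrays 1 to 5, against 8.85, 9.33, 8.74, 8.75 and 8.44 in vehicle arrays 1 to 5, and rose by 1.67 ± 0.18 (SE, limma adjusted p = 0.000157). Gadd45b rose by 1.00 ± 0.09 (SE, limma adjusted p = 5.42e-05), without overlap between the groups. Gadd45g, named after its value was seen, did not pass, at -0.175 ± 0.257 (SE, limma adjusted p = 0.841). Of 7 measured p53 and GADD45 genes 3 rose and 1 fell, with Mdm2, the ubiquitin ligase that restrains p53, at 0.47 ± 0.09 (SE) and the cell cycle inhibitor Cdkn1a at -0.80 ± 0.20 (SE, limma adjusted p = 0.0364), called on 1 of its 2 probe sets. In the GAPDH model 3 rose and 0 fell. The fall of Cdkn1a was also lost without moderation, with the replicate block, after quantile normalisation, in the mean of its probe sets and in 8 of the 10 fits without 1 array (all but those without I3C array 4 or vehicle 4), while 3 rose in each of these.

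Immediate early genes, the class in which Atf3 and Ppp1r15a are also counted, showed 0 of 13 that passed limma (by its unadjusted p under 0.05, 2 higher and 2 lower), with the phosphatase Dusp1 at -0.19 ± 0.17 and Ier3 at 0.22 ± 0.19 (SE). Without vehicle 5, and likewise with array weights, 1 of the 13 fell. After averaging the probe sets of a gene 1 of the 13 rose. Of 9 genes known to respond to glucocorticoids, as Ddit4 does, 1 rose, the tyrosine aminotransferase Tat (0.93 ± 0.16, SE, limma adjusted p = 0.0054), and 0 fell (by limma's unadjusted p under 0.05, 1 higher and 1 lower), and the median log2 difference of the list was -0.11. In the GAPDH and beta-actin models 0 of the 9 passed. Tat also stands among the hepatocyte markers above.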
